A study of Arabidopsis thaliana with 11 samples.

Results

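The genes described here form the programme by which root xylem is specified, builds a secondary cell wall and dies. They were 47 loci of Arabidopsis thaliana, taken by locus identifier from a fixed list, of 28495 genes in all, and every one of them had a row in each of the 3 tables. That list, and the further gene lists used below, were chosen with earlier results of these data known. Shares called among them are therefore description, not independent results. By role there were 7 VND and 5 MYB regulators, a further 3 NAC regulators (NST1, SND1 and XND1), 5 vascular patterning genes, 3 secondary wall cellulose synthases, 13 xylan genes, 3 laccases, 3 cell death proteases and 5 other wall proteins. RNA came from root tips of 11 samples, all of Col-0 background: 3 of wild-type Col-0, 2 of crn-3 (labelled coryne-3), 3 of clv2-gabi (clavata2-gabi) and 3 of cle40-2. Each mutant carried a single named allele, and seedlings of all groups were raised upright on sucrose-containing agar in constant light at 21 °C. The labels give neither the age of the plants nor the nature of the alleles, and CORYNE (CRN) and CLAVATA2 (CLV2) are membrane partners that perceive CLE peptides, of which CLE40 is one.

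Xylem vessels are hollow, dead conducting cells. In a root their precursors are set aside next to the meristem by auxin and cytokinin signalling, and the VND transcription factors, relatives of NST1 and SND1, then switch on MYB46 and MYB83 and, directly or through these, the enzymes of the wall. Those enzymes lay down cellulose, xylan and lignin in thickened bands, after which proteases clear the cell contents.

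The tables hold no value per sample. Each gives the authors' mean of normalised read counts for Col-0 and for 1 mutant, rounded to whole numbers, with the fold change of mutant over Col-0 and an adjusted p, so no error of a single mean is known and depth per sample is unknown. A gene was called at a deposited adjusted p under 0.05, which was adjusted over all genes of a table, and "Col-0" in a sentence on a mutant is the Col-0 mean of that mutant's own table. The same Col-0 libraries served all 3 comparisons, which are therefore not independent of each other. The transcripts of the mutated genes did not check the labels: in the authors' deposited tables CLV2 was 21.44-fold higher in clv2-gabi, CRN 1.22-fold in crn-3, and CLE40 had means of 1 and 3 in Col-0 and cle40-2. Of the markers for other cells, mitotic genes had no member at 0 in Col-0, while 3 of 12 photosynthesis genes were listed at 0 there. In whole root tips, fewer xylem cells and less RNA per xylem cell cannot be told apart.

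In wild-type root tips the early patterning genes were far more abundant than most wall genes. Levels between genes were compared per kb of the longest annotated transcript, from the authors' Col-0 means in the clv2-gabi table. The patterning group had a median of 209 normalised counts per kb, close to the 250.0 of all genes with a mean of at least 10. The xylan genes had a median of 4.46, the laccases of 6.2, the MYB genes of 7.19, the VND genes of 12.0 and the cellulose synthases of 24.4 normalised counts per kb. The highest level was that of a wall gene all the same: GXMT1 reached 1230 per kb, followed by LHW at 645, IRX14 at 570 and the protease gene MC9 at 353. Levels within a role thus ran over a wide range, from 1.07 per kb for FRA8 to 1230 for GXMT1 among xylan genes. Of the 47 genes, 31 had a Col-0 mean of at least 10 in that table, and 4 were listed at 0. Those 4 were VND6, SND1, NST1 and MYB103, of which SND1 and MYB103 were at 0 in every group. SND1 and NST1 are best known from stem fibres. The other defining xylem markers, XCP1, XCP2, CESA4, CESA7, CESA8, VND7 and MYB46, all had Col-0 means above 0, from 9 to 145 in the clv2-gabi table.

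**Figure D1:**
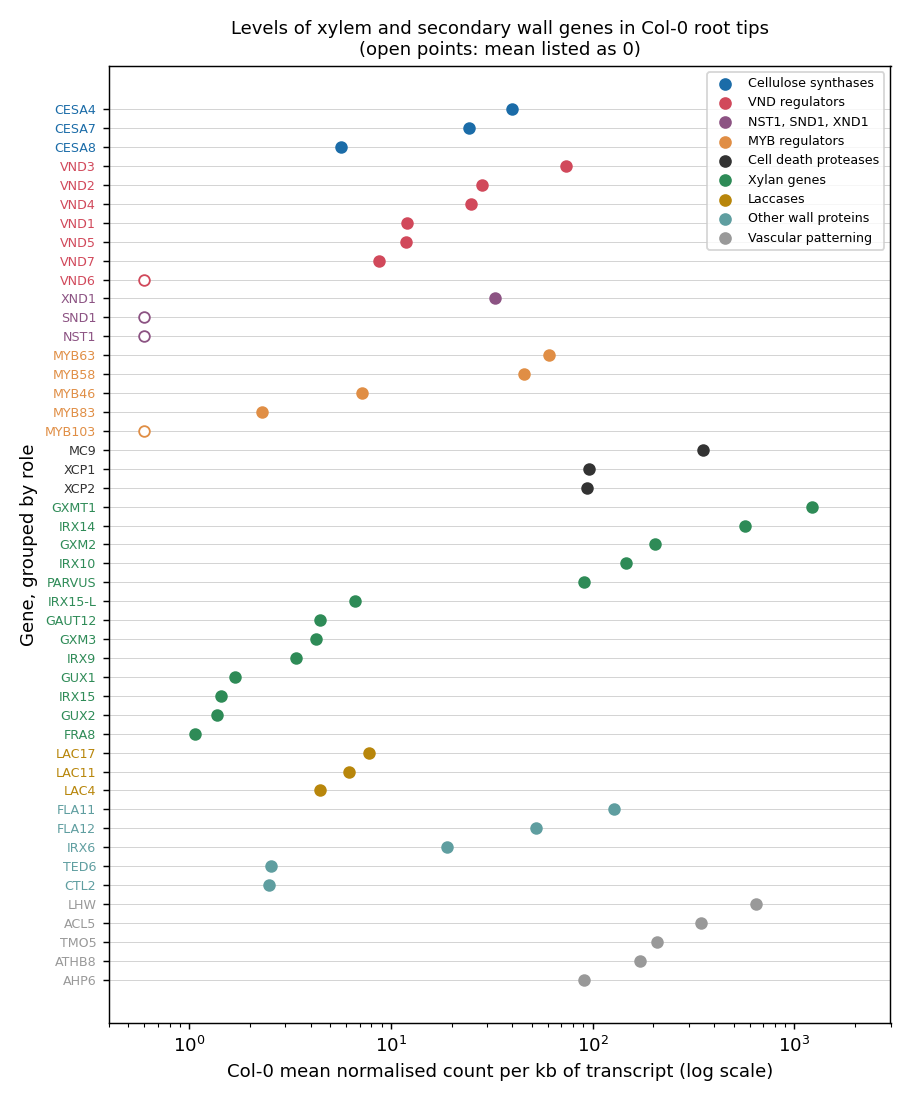
Authors' Col-0 mean of normalised counts per kb of transcript (log axis) for each of the 47 genes, coloured by role; open points at the left are means listed as 0. GXMT1 lies highest at 1230 per kb, the 5 patterning genes lie between 90.7 and 645, and most xylan genes lie under 10.

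The question put to each mutant is which of these genes differ from Col-0. In crn-3, 1 of the 45 genes with an adjusted p was lower (2.22%, against 0.25% of all genes) and none was higher (against 0.189% of all genes). In clv2-gabi, 4 of 44 were lower (9.09%, against 1.59% of all genes) and none was higher (against 0.3%). In cle40-2, 2 of 45 were higher (4.44%, against 3.21% of all genes) and 1 was lower (2.22%, against 1.94%). The lower genes were the xylan gene GXM2 in crn-3, and GXM2, GXMT1, CESA8 and XCP2 in clv2-gabi. In cle40-2 VND1 and CTL2 were higher and FLA11 was lower. The shares in cle40-2 were near those of all genes.

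Log2 changes of the group means, with a pseudocount of 1, were summarised over genes whose 2 means averaged at least 10. In clv2-gabi 29 of the 47 genes passed this filter, with a median of -0.15 against 0.01 over all genes. The median was -0.03 over 30 genes in crn-3 and 0.04 over 34 in cle40-2, against 0 over all genes in each. In all, 13 of the 47 stayed under the filter in every table, and 1 gene in crn-3 and 3 in cle40-2 passed it only through the mutant mean. The cellulose, xylan, laccase, other wall and protease genes, 27 together, held all the calls lower in clv2-gabi. Of the 15 of them that passed the filter there, 13 had a deposited fold change under 1 (86.7%, against 45.3% of all genes). In crn-3 it was 12 of 16 (75%, against 48%) and in cle40-2 10 of 20 (50%, against 48.8%). The genes that passed only through the mutant mean were all of this group: GAUT12 in crn-3, and IRX15-L, GAUT12 and CTL2 in cle40-2. Such genes have folds over 1 by construction, so they lower the shares for crn-3 and cle40-2. The 15 regulators had 9 genes past the filter, of which 7 had a fold under 1 in clv2-gabi (77.8%), 4 in crn-3 (44.4%) and 5 in cle40-2 (55.6%). In clv2-gabi the median of the regulators was 0.958 of Col-0, with no call, against 0.74 for the wall and protease genes. The 5 patterning genes had folds of 1.01 to 1.23 for clv2-gabi in the authors' deposited table. For crn-3 3 of the 5 were over 1, up to 1.2, and the other 2, LHW and ACL5, were at 1. None of the 5 patterning genes passed the threshold in any mutant. This grouping of wall genes was chosen after the values were seen, and no test was made of it.

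**Figure D2:**
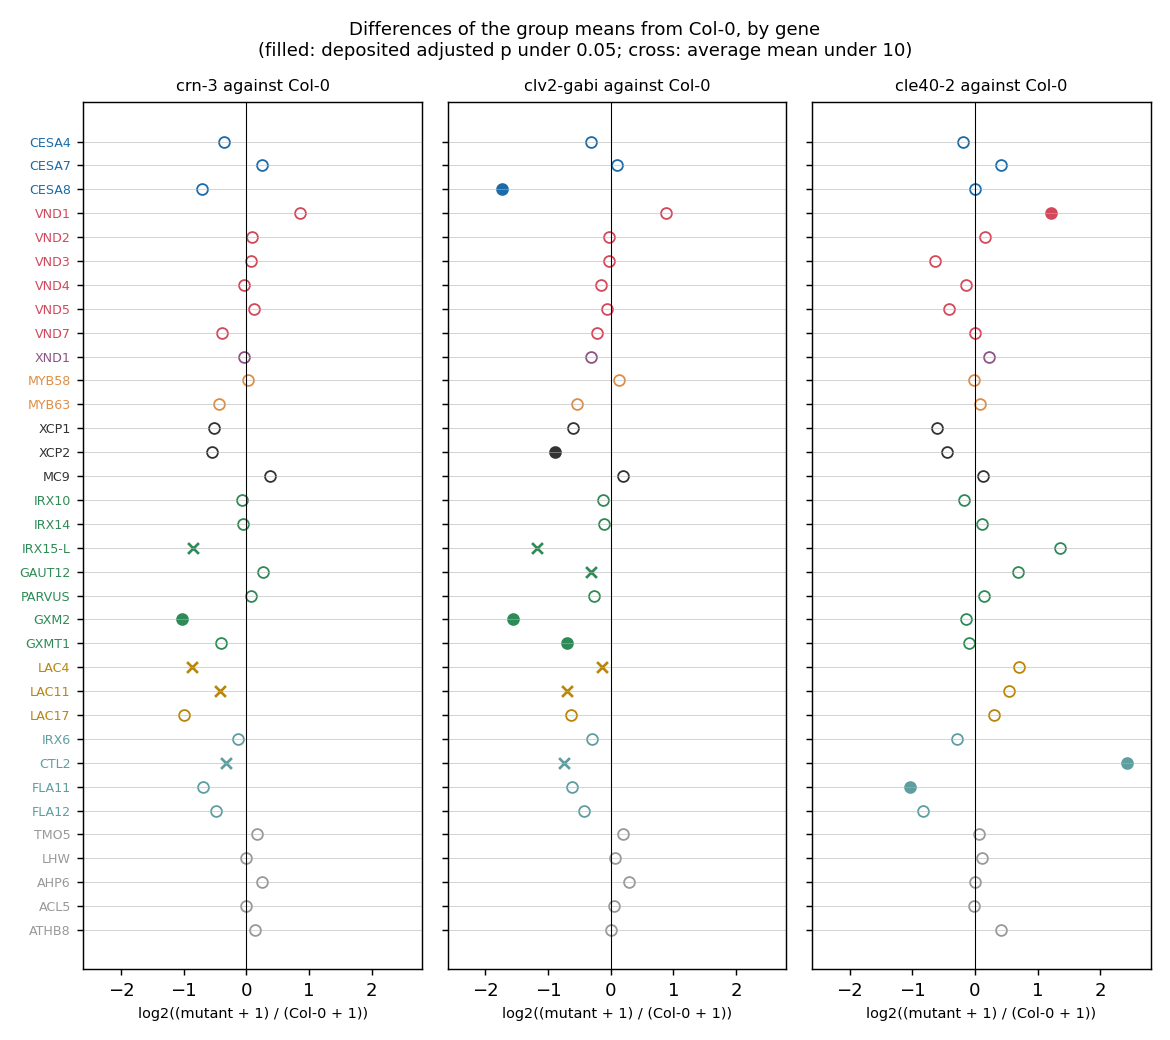
Log2 of (mutant mean + 1) over (Col-0 mean + 1) for the 34 genes whose means averaged at least 10 in at least 1 table, 1 panel per mutant, coloured by role; filled points have a deposited adjusted p under 0.05 and crosses mark averages under 10. In clv2-gabi most wall genes lie to the left of 0, and CESA8, XCP2, GXM2 and GXMT1 are filled.

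The size of a difference has to be read against its level, because low means vary more. For genes averaging 10 to 50 the central 95% of all deposited fold changes spanned 0.48 to 1.87 in the crn-3 table, 0.42 to 1.72 in that of clv2-gabi and 0.40 to 12.02 in that of cle40-2. For averages of 50 to 200 the spans, in the same order, were 0.65 to 1.37, 0.56 to 1.40 and 0.53 to 2.41. They narrowed to 0.80 to 1.20, 0.74 to 1.23 and 0.70 to 1.41 for averages of 200 to 1000, and to 0.83 to 1.14, 0.79 to 1.16 and 0.77 to 1.31 above these. These ranges hold real changes as well as error. Outside them lay VND1, LAC17, GXM2, FLA11, MC9 and GXMT1 in crn-3, where only GXM2 was called. In clv2-gabi CESA8, VND1, XCP2, GXM2 and GXMT1 lay outside, and in cle40-2 FLA11 alone did. The calls of VND1 and CTL2 in cle40-2 thus fell inside the wide range of weakly expressed genes there.

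**Figure D3:**
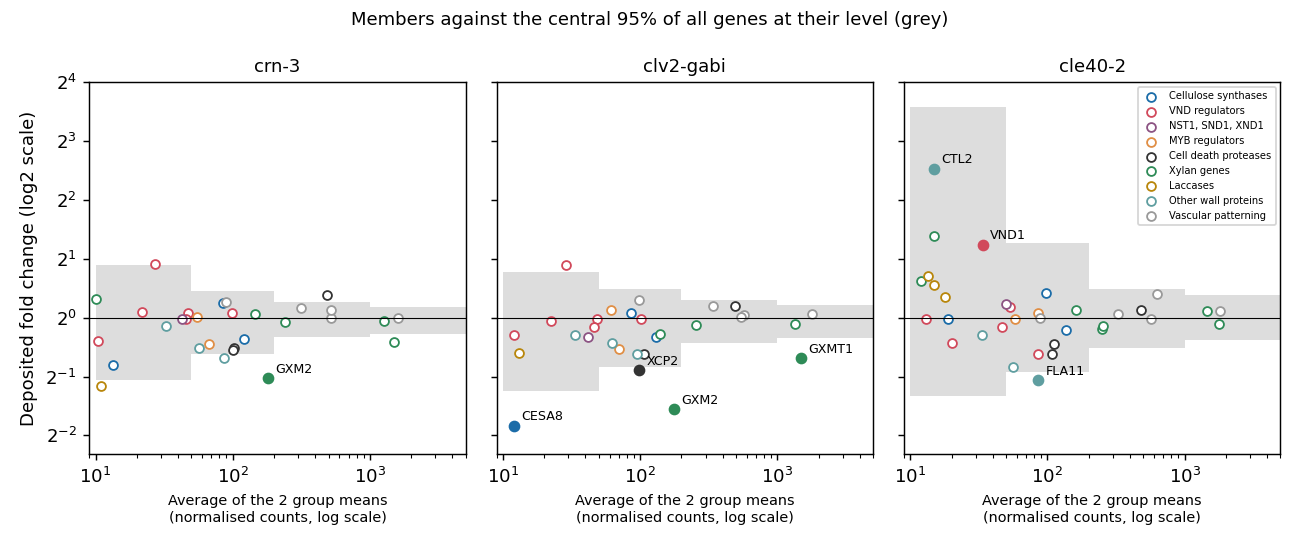
Deposited fold change (log2 axis) against mean level, the average over both groups (log axis), for the genes averaging at least 10; grey bands are the central 95% of all genes in 4 ranges of level, and filled, named points have a deposited adjusted p under 0.05. GXM2, GXMT1, XCP2 and CESA8 lie under the band in clv2-gabi, and CTL2 and VND1 lie within it in cle40-2.

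Of the 13 xylan genes, 1 was lower in crn-3 (7.69%, against 0.25% of all genes) and 2 in clv2-gabi (15.4%, against 1.59%). The called ones were glucuronoxylan methyltransferase genes, which were set apart from the other xylan genes after the calls were seen. Xylan bears glucuronic acid side chains, and GXMT1 (AT1G33800) adds a methyl group to them, while GXM2 (AT4G09990) and GXM3 (AT1G09610) are its relatives, annotated by RefSeq as glucuronoxylan methyltransferases. GXM2 had authors' means of 244 in Col-0 and 119 in crn-3, 263 in Col-0 and 89 in clv2-gabi, and 265 in Col-0 and 240 in cle40-2. It was thus lower in crn-3 and in clv2-gabi and close to Col-0 in cle40-2. In the authors' deposited tables its fold change was 0.49 in crn-3 (adjusted p = 0.002), 0.34 in clv2-gabi (an adjusted p that rounds to 0) and 0.91 in cle40-2 (adjusted p = 0.984).

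GXMT1 had authors' means of 1713 in Col-0 and 1287 in crn-3, 1847 in Col-0 and 1148 in clv2-gabi, and 1857 in Col-0 and 1727 in cle40-2. Its deposited fold change was 0.75 in crn-3 (adjusted p of 1), 0.62 in clv2-gabi (an adjusted p that rounds to 0) and 0.93 in cle40-2 (adjusted p of 1) in the authors' deposited tables. GXMT1 made up 1847 of the 5187 normalised counts that the 27 wall and protease genes had in Col-0 in the clv2-gabi table, where their sum in the mutant was 0.771 of Col-0. GXM3 was scarce, with authors' means of 5 in Col-0 of every table and of 1, 4 and 4 in crn-3, clv2-gabi and cle40-2, and no call. Every 50-base window within the exons of these genes, and of all 47 members, occurred at 1 place only in the genome, so reads of that length would not be shared exactly with another locus, though the read length is unknown here.

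The genes called lower in clv2-gabi share a direction because they were picked as lower. The sequences just upstream of them are shown, read from TAIR10.1 with the coordinates of its RefSeq annotation. Each runs 5′ to 3′ toward the gene and ends at the base before the annotated start. Capitals mark the secondary wall MYB-responsive element, searched on both strands as heptamers that read ACC, then A or T, then A, then A or C, and last C or T.
GXMT1 (chr1:12260865-12261164, plus strand): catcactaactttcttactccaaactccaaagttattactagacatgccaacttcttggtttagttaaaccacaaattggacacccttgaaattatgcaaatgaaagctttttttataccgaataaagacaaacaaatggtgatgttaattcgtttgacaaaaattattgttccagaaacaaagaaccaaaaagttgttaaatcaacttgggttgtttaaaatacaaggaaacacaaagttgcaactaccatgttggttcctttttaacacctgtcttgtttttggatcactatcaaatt
XCP2 (chr1:7251811-7252110, plus strand): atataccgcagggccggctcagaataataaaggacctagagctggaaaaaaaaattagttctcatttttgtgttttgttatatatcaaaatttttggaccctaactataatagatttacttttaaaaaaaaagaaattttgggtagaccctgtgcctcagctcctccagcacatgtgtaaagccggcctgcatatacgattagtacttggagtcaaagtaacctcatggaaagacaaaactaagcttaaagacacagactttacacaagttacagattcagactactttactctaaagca
CESA8 (chr4:10316887-10317186, minus strand): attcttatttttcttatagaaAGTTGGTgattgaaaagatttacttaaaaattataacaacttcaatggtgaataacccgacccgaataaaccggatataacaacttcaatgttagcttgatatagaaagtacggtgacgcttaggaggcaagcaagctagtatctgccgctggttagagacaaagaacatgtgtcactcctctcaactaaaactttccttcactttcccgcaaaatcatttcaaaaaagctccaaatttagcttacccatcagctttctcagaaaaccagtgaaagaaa
GXM2 (chr4:6260260-6260301, minus strand): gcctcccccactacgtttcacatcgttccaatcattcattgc
Only 42 bases are shown for GXM2, since the next gene upstream, AT4G10000 on the same strand, ends there and covers the other 258 bases of the 300-base window. That neighbour had a fold change of 1.15 in clv2-gabi in the authors' deposited table. Of the CESA8 window, 237 bases are annotated as part of the non-coding RNA gene AT4G06845. The heptamers were found in the CESA8 window, on the strand opposite to the gene, and in none of the other 3 windows of 300 bases. They occurred in 17 of the 47 upstream windows of 300 bases (36.2%) and in 34.0% of the 26708 windows of protein-coding genes, so their share among these genes was near that of all genes.

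The other xylan genes fall into abundant and scarce ones, and none of them passed the threshold in any mutant. IRX14 (AT4G36890) and IRX10 (AT1G27440) act in building the xylan backbone, and PARVUS (AT1G19300) acts with FRA8 and GAUT12 on the sequence at its reducing end. IRX14 had authors' means of 1388 in Col-0 and 1289 in clv2-gabi, a fold change of 0.93 in the authors' deposited table, against 0.96 in crn-3 and 1.08 in cle40-2. IRX10 had folds of 0.95, 0.92 and 0.88, and PARVUS of 1.05, 0.83 and 1.10, in crn-3, clv2-gabi and cle40-2 in the authors' deposited tables. These 3 genes stayed within the central range of their level in every mutant. The other 7, IRX9 (AT2G37090), IRX15 (AT3G50220), IRX15-L (AT5G67210), FRA8 (AT2G28110), GAUT12 (AT5G54690) and the glucuronic acid transferase genes GUX1 (AT3G18660) and GUX2 (AT4G33330), had authors' Col-0 means from 2 to 9 in the clv2-gabi table. Of these, IRX15-L had authors' means of 8 and 4 in Col-0 and crn-3, 8 and 3 in Col-0 and clv2-gabi, and 8 and 22 in Col-0 and cle40-2, with deposited adjusted p of 1, 0.961 and 0.179. In a list of 11 further genes of xylan synthesis and acetylation none was called in any mutant, with medians of 0.947, 0.942 and 1 of Col-0 in crn-3, clv2-gabi and cle40-2.

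The secondary wall cellulose synthases CESA4 (AT5G44030), CESA7 (AT5G17420) and CESA8 (AT4G18780) act together as a complex. In clv2-gabi 1 of the 3 was lower (33.3%, against 1.59% of all genes), and none was called in crn-3 or cle40-2. CESA8 had authors' means of 17 in Col-0 and 10 in crn-3, 19 in Col-0 and 5 in clv2-gabi, and 19 in Col-0 and 19 in cle40-2. It was lower in clv2-gabi, at 0.28 of Col-0 in the authors' deposited table (adjusted p = 0.028), and had folds of 0.57 in crn-3 and 0.99 in cle40-2 with an adjusted p of 1 in each. CESA4 had authors' means of 145 and 116 in Col-0 and clv2-gabi, and deposited folds of 0.78, 0.80 and 0.87 in crn-3, clv2-gabi and cle40-2. CESA7 had authors' means of 83 and 89 in Col-0 and clv2-gabi, and deposited folds of 1.19, 1.06 and 1.34. The CESA8 call therefore rests on the least abundant of the 3 genes, at 5.68 per kb against 39.9 for CESA4 and 24.4 for CESA7, and the difference between the genes was not tested. Primary wall cellulose genes, 11 in number and with a summed Col-0 mean of 64671 in the clv2-gabi table, held no called gene in either crn-3 or clv2-gabi, with medians of 0.985 and 0.891. In cle40-2 1 of them was higher (9.09%, against 3.21% of all genes), CESA10, which went from an authors' mean of 1 to 31. The list's median was 1.02.

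Among the other wall proteins, the fasciclin-like arabinogalactan protein genes FLA11 (AT5G03170) and FLA12 (AT5G60490) lay below Col-0 in every mutant, and 1 of these differences was called. Of the 5 other wall proteins, 1 was lower in cle40-2 (20%, against 1.94% of all genes) and 1, CTL2, was higher (20%, against 3.21%). FLA11 had authors' means of 107 in Col-0 and 66 in crn-3, 116 in Col-0 and 75 in clv2-gabi, and 116 in Col-0 and 56 in cle40-2. Its fold change in the authors' deposited tables was 0.62 in crn-3 (adjusted p = 0.895), 0.65 in clv2-gabi (adjusted p = 0.205) and 0.48 in cle40-2 (adjusted p = 0.001). FLA12 had authors' means of 72 and 40 in Col-0 and cle40-2, at 0.56 in the authors' deposited table (adjusted p = 0.092), and folds of 0.70 in crn-3 and 0.74 in clv2-gabi. The annotated 3′ end of FLA11 overlaps that of P58IPK on the other strand, which had a fold change of 0.95 in cle40-2 in the authors' deposited table. IRX6 (AT5G15630), a COBRA-like protein gene, had folds of 0.91, 0.82 and 0.82 in crn-3, clv2-gabi and cle40-2 in the authors' deposited tables. TED6 (AT1G43790), which encodes a membrane protein of differentiating vessels, had authors' means of at most 3 in any group.

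Of the cell death genes, XCP1 (AT4G35350) and XCP2 (AT1G20850) encode papain-type proteases of the vessel vacuole, and MC9 (AT5G04200) a metacaspase that clears the cell after death. XCP2 had authors' means of 119 in Col-0 and 81 in crn-3, 129 in Col-0 and 69 in clv2-gabi, and 129 in Col-0 and 94 in cle40-2. Its mean was below Col-0 in each mutant, and the difference passed the threshold in clv2-gabi, at 0.54 in the authors' deposited table (adjusted p = 0.003), against 0.68 in crn-3 (adjusted p of 1) and 0.73 in cle40-2 (adjusted p = 0.375). XCP1 had authors' means of 120 in Col-0 and 84 in crn-3, 129 in Col-0 and 85 in clv2-gabi, and 130 in Col-0 and 85 in cle40-2. Its folds of 0.70, 0.65 and 0.65 did not pass the threshold in the authors' deposited tables (adjusted p of 1, 0.137 and 0.136). MC9 had authors' means of 425 and 553 in Col-0 and crn-3, 459 and 528 in Col-0 and clv2-gabi, and 461 and 503 in Col-0 and cle40-2, and no call. In a list of 13 further maturation genes 1 was lower in clv2-gabi (7.69%, against 1.59% of all genes). It was IQD13, a microtubule-associated protein gene acting in wall pit formation, with authors' means of 234 and 140 (0.60 in the authors' deposited table, adjusted p = 0.004). In cle40-2 1 of the 13 was higher (7.69%, against 3.21% of all genes), and in crn-3 none was called. The higher gene was the peroxidase gene PRX72, with authors' means of 72 and 225 (3.11 in the authors' deposited table).

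The laccases LAC4 (AT2G38080), LAC11 (AT5G03260) and LAC17 (AT5G60020) oxidise lignin monomers in the wall, and none was called. Their summed authors' means were 36 in Col-0 and 20 in crn-3, 38 in Col-0 and 26 in clv2-gabi, and 38 in Col-0 and 55 in cle40-2. The sums were thus below Col-0 in crn-3 and clv2-gabi and above it in cle40-2, at levels where single genes vary widely. The enzymes that make lignin monomers, a list of 18 genes, are far more abundant, with a summed Col-0 mean of 41645 in the clv2-gabi table. In clv2-gabi 5 of the 18 were lower (27.8%, against 1.59% of all genes) and none was higher (against 0.3%). The sum of the 18 was 0.77 of Col-0. PAL1, which opens the phenylpropanoid pathway, had authors' means of 7194 and 4234 (0.59 in the authors' deposited table, an adjusted p that rounds to 0). Also lower there were the ligase genes 4CL1 at 0.62 and 4CL3 at 0.71 and the methyltransferase gene CCoAOMT1 at 0.71 in the authors' deposited table (adjusted p = 0.001, 0.039 and 0.019). None of the 18 was called in crn-3 or in cle40-2, where the medians were 0.924 and 1.09 of Col-0. These enzymes also feed pathways outside xylem.

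Of the regulators with an adjusted p, 1 of 13 was higher in cle40-2 (7.69%, against 3.21% of all genes). None was called in crn-3 or clv2-gabi. VND1 (AT2G18060) had authors' means of 19 in Col-0 and 35 in crn-3, 20 in Col-0 and 38 in clv2-gabi, and 20 in Col-0 and 48 in cle40-2. The mutant mean was the higher one each time, and the fold changes in the authors' deposited tables were 1.88 in crn-3 (adjusted p of 1), 1.87 in clv2-gabi (adjusted p = 0.315) and 2.36 in cle40-2 (adjusted p = 0.016). All 3 comparisons use the same Col-0 libraries. VND2 (AT4G36160), VND3 (AT5G66300), VND4 (AT1G12260), VND5 (AT1G62700) and VND7 (AT1G71930), which drive vessel formation with VND1, were not called. VND3, the most abundant of them, had authors' means of 104 and 67 in Col-0 and cle40-2, at 0.65 in the authors' deposited table (adjusted p = 0.154), and folds of 1.06 in crn-3 and 0.98 in clv2-gabi. VND7, the protoxylem regulator, had deposited folds of 0.76, 0.82 and 0.99, at authors' means of 13 or less. VND6 (AT5G62380), the metaxylem regulator, SND1 (AT1G32770), NST1 (AT2G46770) and MYB103 (AT1G63910) had authors' means of at most 3 in any group. XND1 (AT5G64530), which holds back vessel differentiation, had folds of 0.98, 0.80 and 1.17 in the authors' deposited tables, without a call.

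Of the MYB genes, MYB46 (AT5G12870) and MYB83 (AT3G08500) act as master switches below the VND factors. MYB46 had authors' means of 8 in Col-0 and 9 in crn-3, 9 in Col-0 and 1 in clv2-gabi, and 9 in Col-0 and 9 in cle40-2. The clv2-gabi mean was 0.13 of Col-0 in the authors' deposited table and missed the threshold (adjusted p = 0.066). MYB46 averaged under 10 in each comparison, so it was left out of the filtered medians and shares. MYB83 had authors' means of 4 and 2 in Col-0 and clv2-gabi. The lignin regulators MYB58 (AT1G16490) and MYB63 (AT1G79180) had authors' means of 58 and 64, and of 83 and 57, in Col-0 and clv2-gabi, with adjusted p of 1 and 0.584 in the authors' deposited table. A list of 18 further secondary wall regulators had no call in crn-3. It had 1 lower gene in clv2-gabi (6.67% of those with an adjusted p, against 1.59% of all genes) and 1 in cle40-2 (5.88%, against 1.94%). In clv2-gabi this was VNI2, a NAC repressor that binds VND7, with authors' means of 463 and 267 (0.58 in the authors' deposited table, an adjusted p that rounds to 0). In cle40-2 it was LBD15, with authors' means of 410 and 272 (0.66 in the authors' deposited table, adjusted p = 0.022).

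The vascular patterning genes did not pass the threshold in any mutant. TMO5 (AT3G25710) and LHW (AT2G27230) form a dimer that drives divisions of vascular cells, AHP6 (AT1G80100) dampens cytokinin signalling in protoxylem, ACL5 (AT5G19530) makes thermospermine, which restrains vessel formation, and ATHB8 (AT4G32880) marks procambium. LHW had authors' means of 1746 and 1837 in Col-0 and clv2-gabi, and folds of 1, 1.05 and 1.08 in crn-3, clv2-gabi and cle40-2 in the authors' deposited tables. TMO5 had folds of 1.12, 1.15 and 1.05, and ACL5 of 1, 1.03 and 0.99, in the same order in the authors' deposited tables. AHP6 had folds of 1.20, 1.23 and 1 there. ATHB8 had authors' means of 541 and 717 in Col-0 and cle40-2, at 1.32 in the authors' deposited table (adjusted p = 0.149), against 1.10 and 1.01 in crn-3 and clv2-gabi. In a list of 12 further patterning genes none was called in crn-3 or clv2-gabi. In cle40-2 1 was higher (8.33%, against 3.21% of all genes). It was the auxin response factor gene ARF5, with authors' means of 1134 and 1957 (1.73 in the authors' deposited table, an adjusted p that rounds to 0). Of 5 genes of the TDIF peptide pathway, which keeps procambium undifferentiated, 1 was higher in cle40-2 (20%, against 3.21% of all genes), and none was called in the other mutants. The higher gene was the peptide gene CLE41, with authors' means of 26 and 58 (2.22 in the authors' deposited table, adjusted p = 0.017).

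CTL2 (AT3G16920), which encodes a chitinase-like protein of secondary walls, was higher in cle40-2 together with most of its neighbours. CTL2 had authors' means of 4 in Col-0 and 3 in crn-3, 4 in Col-0 and 2 in clv2-gabi, and 4 in Col-0 and 26 in cle40-2, where it was 5.78-fold higher in the authors' deposited table (adjusted p = 0.002). It lies on chromosome 3 of TAIR10.1 from 5776264 to 5778052. Of the 10 genes on each side of it, a stretch of 66.4 kb, 16 had an adjusted p in cle40-2. Of these, 13 were higher and none lower, against 3.21% and 1.94% of all genes. Among the neighbours, AAE7 was 2.41-fold, AT3G16940 3.03-fold and LPD1 1.97-fold higher in the authors' deposited table, each with an adjusted p that rounds to 0. The median fold change of the 14 neighbours with an average of at least 10 was 2.02. Most of the stretch was thus higher, and whether CTL2 changed beyond it was not tested. The CTL2 fold of 5.78, from means of 4 and 26, compares with at most 3.03 among those 14 neighbours. The other members on chromosome 3 had no called neighbour in cle40-2: GUX1 at 0.643 Mb from CTL2, MYB83 at 3.2 Mb, TMO5 at 3.59 Mb and IRX15 at 12.8 Mb.

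The same view was taken of the other called members. None of the 10 genes on each side of GXM2, GXMT1, CESA8 or XCP2 was called in clv2-gabi, of 17, 11, 14 and 17 with an adjusted p, and none around GXM2 in crn-3, of 16. None of 17 was called around FLA11 in cle40-2. Over all genes 0.3% were called higher and 1.59% lower in clv2-gabi, and 0.189% and 0.25% in crn-3. In cle40-2 it was 3.21% and 1.94%. At these shares a window of so few genes would often hold no call, so the counts say little about single loci. Around VND1 in cle40-2 1 of 16 was called: PIN1AT (AT2G18040), 4.03 kb away with 1 gene between, had authors' means of 6888 and 458 (0.07 in the authors' deposited table, an adjusted p that rounds to 0). PIN1AT was picked out after its value was seen, and its part in the VND1 value was not tested. AT4G10000 and P58IPK were likewise named for their place, not by the naming rule.

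**Figure D4:**
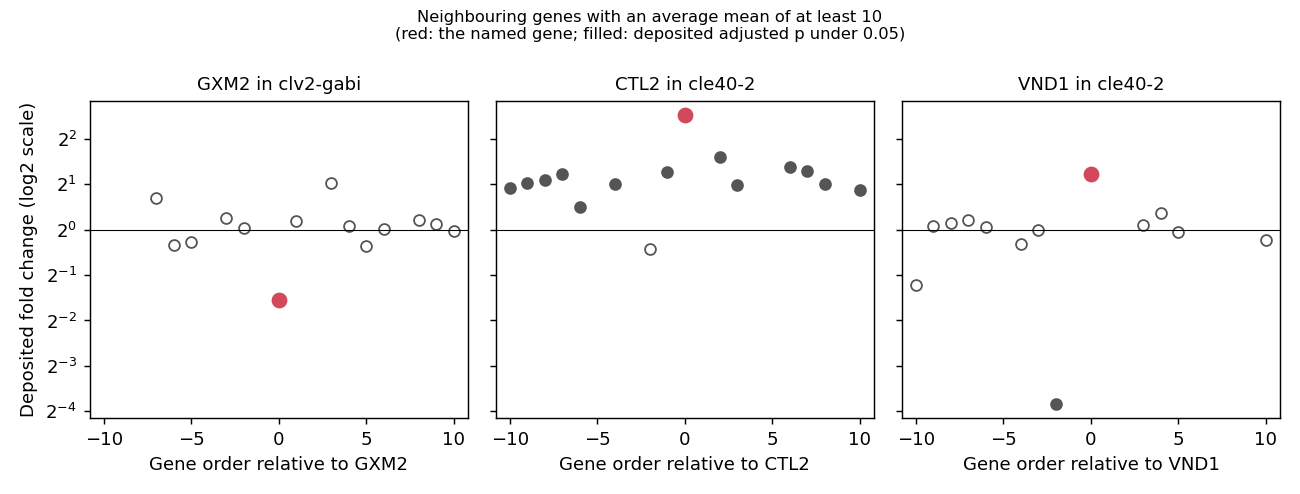
Deposited fold change (log2 axis) of the genes within 10 places on each side of GXM2 in clv2-gabi, CTL2 in cle40-2 and VND1 in cle40-2, by gene order, for genes averaging at least 10; red is the named gene, and filled points have a deposited adjusted p under 0.05. GXM2 stands alone below its neighbours, CTL2 sits among 13 raised genes, and VND1 lies close to PIN1AT at 0.07.

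A second element known from vessel genes was looked for in the same windows: the tracheary element-regulating element, which reads CTTN followed directly by AAAGCNA, on both strands. It was found upstream of 4 of the 47 genes (8.51%) and in 0.438% of the 26708 windows. Because the element is known from vessel genes and the 47 were picked as xylem genes, this difference is not an independent result. The 4 matches are shown with 9 bases on each side, because they differ in the variable bases. All lie on the strand of the gene, and the element is in capitals.
CESA4 (chr5:17714361-17714389, plus strand): acataataaCTTGAAAGCTActctaagtt
XCP1 (chr4:16810398-16810426, plus strand): ttgtctttgCTTCAAAGCCAatcctatga
MC9 (chr5:1153668-1153696, plus strand): gttccatagCTTAAAAGCAAactagactt
FLA11 (chr5:753842-753870, minus strand): aaactctccCTTCAAAGCAAtgtctctcc
The matches begin 20, 75, 63 and 204 bases before the annotated start of CESA4, XCP1, MC9 and FLA11. These 4 genes did not share a direction: their folds in clv2-gabi were 0.80, 0.65, 1.15 and 0.65, and in cle40-2 0.87, 0.65, 1.09 and 0.48, in the authors' deposited tables, and only FLA11 in cle40-2 was called. No match was found in the windows of GXM2, GXMT1, CESA8 or XCP2. A match in these letters is a description, not a binding site.
The CESA4 stretch shown overlaps another annotated gene, AT5G44020, which also overlaps CESA4 itself. The FLA11 match lies within the annotated 3′ end of the next gene, AT5G03180, and the 182 bases nearer to FLA11, with a MYB-responsive heptamer in capitals, read as follows.
FLA11 (chr5:753658-753839, minus strand): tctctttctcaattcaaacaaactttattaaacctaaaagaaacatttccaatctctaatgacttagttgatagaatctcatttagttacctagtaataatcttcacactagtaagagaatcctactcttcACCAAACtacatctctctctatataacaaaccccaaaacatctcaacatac

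Markers of other root cells moved in the same libraries, and their part in these results was not tested. The marker lists too were chosen with earlier results of these data known, so their shares are not independent results. Root hair markers were lower in crn-3 (2 of 8, 25%, against 0.25% of all genes) and clv2-gabi (6 of 8, 75%, against 1.59%). They were higher in cle40-2 (4 of 8, 50%, against 3.21%). Their summed means were 0.687, 0.549 and 1.45 of Col-0, in this order of mutants. Endodermis markers gave no called gene in either crn-3 or clv2-gabi, with summed means of 0.84 and 0.842 of Col-0. In cle40-2 6 of 8 were higher (75%, against 3.21% of all genes), with a summed mean of 1.89 of Col-0. Photosynthesis genes were higher in 11 of 12 cases in cle40-2 (91.7%, against 3.21% of all genes), where their summed mean went from 430 to 1765. In clv2-gabi 1 of 12 was higher (8.33%, against 0.3% of all genes), and none was called in crn-3. Phloem markers had no call of 11 in any mutant, with summed means of 1.06, 1.06 and 1.09 of Col-0. Mitotic genes had no call of 10 either, at 1.01, 1.06 and 0.995 of Col-0. The hair and endodermis markers thus lay on opposite sides of Col-0 in clv2-gabi and cle40-2.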

How the data were processed

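RNA-seq of root tips was available as 3 deposited tables, each with group means only. The authors used CASAVA 1.8.2, DESeq and the build TAIR10, per the submitters' processing notes. Nothing used here names the aligner, the counting tool, the strand setting or the annotation. The group values are treated as a score: the authors' means of normalized counts, rounded by them to whole numbers. The deposited fold change is the ratio of mutant to Col-0 mean, and the adjusted p-value deposited by the authors, who used DESeq, has 3 decimals and was taken as adjusted over all genes of its table. The Col-0 means in the clv2-gabi and cle40-2 tables are each a median 1.08 times those in the crn-3 table, so mutants were compared with Col-0 within a table.

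No test was added to the deposited ones. Calls, medians, sums, levels per kb, gene neighbours and sequence matches were computed in Python 3.11.15 with pandas 2.3.3, and the calls and medians were tested on simulated data with known answers. Of the identifiers, 28008 matched TAIR10.1 (RefSeq) loci, which gave symbols, lengths, positions and upstream sequences (read from its genome, in place of the promoter table that had been planned), and 487 did not. Since 16 of the 47 genes overlap another annotated gene, reads there could not be assigned without knowing the strand setting. Whether replicates were raised as separate cultures is unstated, so the spread behind the p-values may be technical only.

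The 47 genes and the 12 lists were chosen with earlier results of these data known. Any of the 47 could be named; of a list, up to 4 called genes per mutant by smallest adjusted p; of the neighbours of CTL2, up to 6 called ones. Alternatives were other thresholds, filters, pseudocounts and subsets of genes.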

Additional observations from a re-analysis of the deposited data

How the results depend on the processing

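Of 48 recomputed counts of called genes, 39 stayed within 1.5 times the reported one, and of 21 recomputed medians 20 stayed within 0.1 on the log2 scale. Some of these could not have moved. A stricter setting cannot change a count of 0, and leaving out genes that were not called changes no count. Leaving out genes already under the filter changes no median. With a fold of at least 2 asked for, 2 genes were called in clv2-gabi, both lower, in place of 4, while the share of all genes called lower went from 1.59% to 0.566%. Asking for 50 normalised counts in whichever group was higher, 1 was called in cle40-2 and 0 of these were higher (2.25% of all genes were higher and 1.78% lower). In cle40-2 an adjusted p under 0.01 left 1 higher gene (against 2.22% of all genes), as did leaving out CTL2, and an adjusted p under 0.1 gave 2 lower genes (against 2.55% of all genes). Without GXM2 and GXMT1, an alternative chosen after seeing the data, 0 genes were lower in crn-3 and 2 in clv2-gabi. With no filter on low means the median log2 change in clv2-gabi was -0.27, the added genes being those with averages under 10. The clv2-gabi median stayed below 0 under all 7 alternatives. Leaving out CTL2, or members with a Col-0 mean under 10, could not move it, as none of these genes passed the filter there. The cle40-2 median lay between -0.01 and 0.04. No paired analysis was possible because the tables hold no values per sample, and no replicate could be left out for the same reason. There were 2 crn-3 samples, 16 of 47 genes had a Col-0 mean under 10, and what size of difference could be detected was not estimated.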
